A study of Homo sapiens with 6 samples.

Results

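The nuclear genes of the mitochondrial respiratory chain and ATP synthase were followed in DU145 cells, a human prostate carcinoma line, after 24 h with the compound OTI-611 at 5 µM or with its solvent DMSO. Members were the rows whose symbol begins with NDUF, UQC, ATP5 or COX4 to COX8, the SDHA to SDHD rows and CYC1, without antisense and numbered pseudogene names. This gave 104 of the 32692 genes in the table, of which 99 encode proteins and 88 averaged 1 or more across the 6 libraries and were tested. Each group held 3 libraries, numbered as the labels number them, and both groups share the same line. The series title places the study around the chromatin remodeller CHD1L and prostate cancer.

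The respiratory chain passes electrons from NADH (complex I) and succinate (complex II) through complex III and cytochrome c to oxygen at complex IV, and pumps protons across the inner mitochondrial membrane. ATP synthase lets the protons back and makes ATP. Nuclear genes encode most subunits. Mitochondrial DNA encodes the others, whose RNA was not analysed here. The catalytic subunits of these complexes carry the flavin, iron-sulfur, heme or nucleotide sites, while many accessory subunits are small proteins that help build and hold the complexes.

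Values are read as RPKM, reads per kilobase of gene scaled to library size. They behave as if divided by all annotated exon bases of a gene, which is not the length of the expressed transcript. Levels of different genes are therefore only roughly comparable. DMSO 1 holds whole numbers and is read as the same scale with its decimals dropped. Depth, estimated from the step between low values, was 37.2 to 37.7 M reads with OTI-611, 30.7 M in DMSO 2 and 32.3 M in DMSO 3, and could not be estimated for DMSO 1. The epithelial keratin genes KRT8 and KRT18 had DMSO means of 149 and 99.3 RPKM, and the leukocyte gene PTPRC was at 0 to 0.0086 RPKM over the 6 libraries. The prostate antigen gene KLK3 stood at 0 to 0.0595 RPKM, and the epithelial cadherin gene CDH1 was at 4, 4.39 and 4.80 RPKM with DMSO and 1.45, 1.46 and 1.71 with OTI-611. Differences are on the log2(RPKM + 1) scale, OTI-611 minus DMSO, and a gene counts as lower or higher where its limma adjusted p (Benjamini-Hochberg over the 11978 genes tested) was under 0.05. Whether the replicates came from separate cultures is not given in the sources used here, and the p-values therefore cover the spread among these 6 libraries alone, which may be technical. In such bulk RNA, fewer cells with a transcript and less transcript per cell cannot be told apart.

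Most tested members were lower with OTI-611. Of the 88, 55 (62.5%) were lower, 7 (7.95%) were higher and 26 did not pass, against 37.3% lower and 27.8% higher among all genes tested. In either direction 65.2% of all genes tested passed. The median difference was -0.25 for the members and -0.05 for all genes tested. The OTI-611 libraries lay below all DMSO libraries in 58 members and above them in 9, against 39.7% and 30.5% of all genes tested (70.2% in either direction). Of the 88, 18 were lower and 1 was higher by at least 0.5 on the log2 scale, against 14.5% and 8.28% of all genes tested. ATP5MC3, for a c subunit of ATP synthase, and NDUFB3, for a membrane-arm subunit of complex I, had the lowest differences, and NDUFA13 of complex I had the highest.

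**Figure D1:**
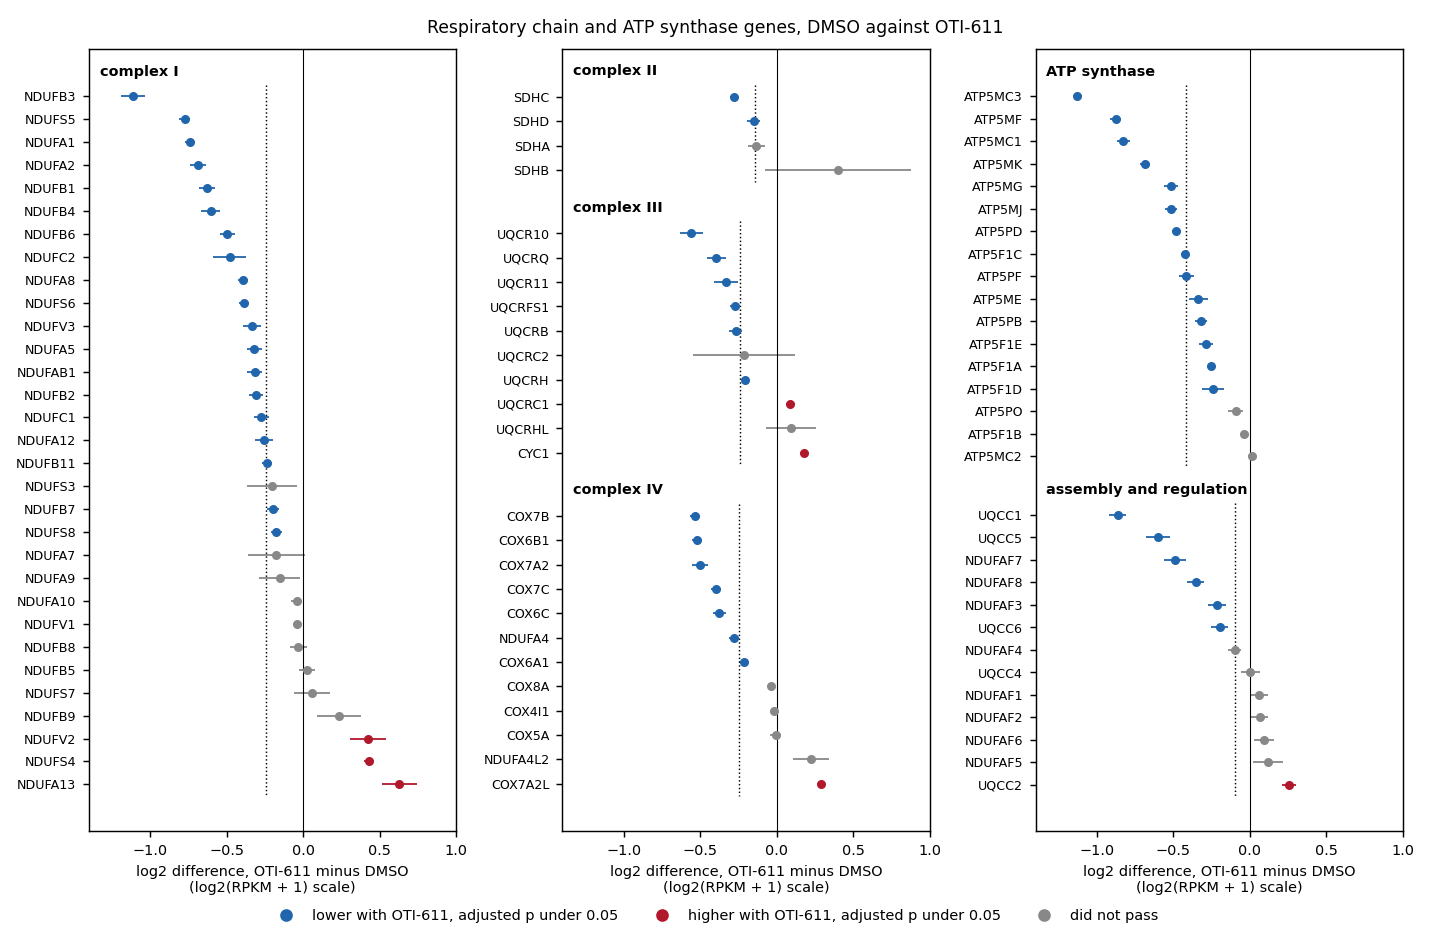
Difference between OTI-611 and DMSO (x axis, log2(RPKM + 1) scale) for the tested members other than 1 that is not reported by name, grouped by complex; points are fitted differences, bars are 1 standard error, dotted lines are the medians over all tested members of each group. The 17 ATP synthase genes have the lowest median, -0.42, and the wide bars of SDHB and UQCRC2 reflect libraries of 1 group that lay far apart.

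By complex, the ATP synthase genes had the lowest median. Of its 17 tested genes 14 were lower and 0 higher, with a median of -0.42. Complex I had 20 of 32 lower and 3 higher (median -0.25), complex III 6 of 10 lower and 2 higher (-0.24), complex IV 7 of 12 lower and 1 higher (-0.24), and complex II 2 of 4 lower and 0 higher (-0.14). Among 13 assembly factors that share these name stems, 6 (46.2%) were lower and 1 (7.69%) was higher, with a median of -0.10. Beside these classes, 37.3% of all genes tested were lower and 27.8% higher, with a median of -0.05. Differences between complexes were not tested.

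In ATP synthase, the c subunits form the rotating ring in the membrane, and ATP5MC1, ATP5MC2 and ATP5MC3 encode the same mature c protein behind different targeting sequences. ATP5MC3 was at 67, 67.6 and 66.6 RPKM in the DMSO libraries and at 30.5, 28.9 and 31.0 with OTI-611. The groups lay far apart, and the log2 difference was -1.13 ± 0.032 (SE, limma adjusted p = 1.51e-08). ATP5MC1 went from 67, 65.1 and 69.1 RPKM to 39.9, 36.0 and 36.3, a difference of -0.83 ± 0.042 (SE, limma adjusted p = 3.54e-07). ATP5MC2, in contrast, overlapped between groups, with 83, 81.0 and 85.4 RPKM in DMSO and 84.9, 84.7 and 82.1 with OTI-611 (difference 0.01 ± 0.028 SE, limma adjusted p = 0.707). The summed level of these c genes was 217 ± 3.74 RPKM in DMSO libraries and 151 ± 3.32 RPKM in OTI-611 libraries (SD, n = 3 each). Of that sum ATP5MC2 made up 38.3% ± 0.36 in DMSO libraries and 55.4% ± 1.07 in OTI-611 libraries (SD, n = 3 each). The sum and shares are of RPKM values and not of transcript molecules. They depend on the annotated exon lengths, 2615, 3991 and 6780 bases for ATP5MC1, ATP5MC2 and ATP5MC3.

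**Figure D2:**
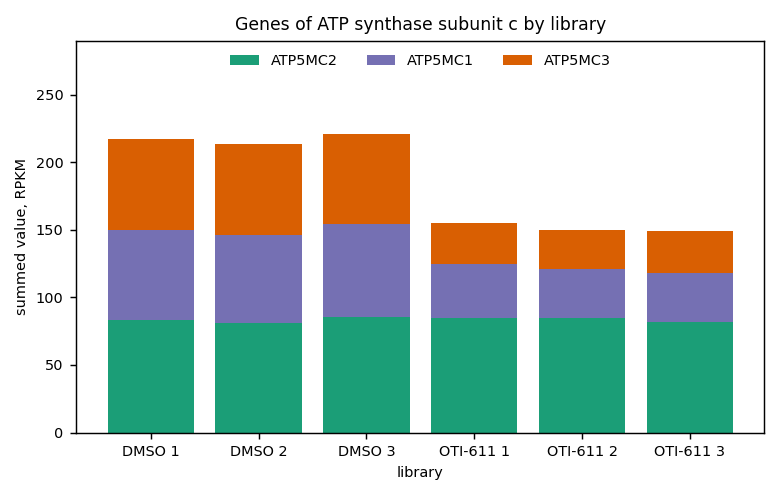
Values of ATP5MC1, ATP5MC2 and ATP5MC3 stacked for each library (y axis, summed RPKM from 0). The ATP5MC2 segment has nearly the same height in each bar, and the other segments are shorter in the OTI-611 libraries, where the bars total 149 to 155 against 214 to 221 in DMSO.

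The small membrane subunits of ATP synthase lie around the c ring and join the enzyme into dimers. They were lower in 5 of 5 tested genes, with a median of -0.52, against 37.3% lower and 27.8% higher among all genes tested. ATP5MF went from 57, 57.5 and 60.4 RPKM to 31.8, 29.8 and 32.2 (difference -0.88 ± 0.037 SE, limma adjusted p = 1.24e-07). ATP5MK went from 87, 86.3 and 91.4 RPKM to 55.5, 52.4 and 55.5, with no overlap between groups (-0.69). ATP5MG and ATP5MJ both differed by -0.52, and ATP5ME by -0.34. The exons of ATP5ME share 61.6% of their bases with another gene in GENCODE release 29. Of the peripheral stalk genes, which hold the catalytic head still, ATP5PD (-0.48), ATP5PF (-0.42) and ATP5PB (-0.32) were lower, and ATP5PO, at -0.09, did not pass. The genes of the catalytic F1 head had a median of -0.25, against -0.37 for the peripheral stalk, and these parts were not tested against each other. The beta subunit gene ATP5F1B had the highest RPKM of the members. It was at 881, 898 and 882 RPKM in DMSO and at 866, 855 and 868 with OTI-611. Its difference was -0.04 (limma adjusted p = 0.141), and 0.03 after rescaling to the median log ratio. Its partner ATP5F1A differed by -0.25, ATP5F1C by -0.42 and ATP5F1E by -0.29. ATP5F1D (-0.24) had overlapping groups and a limma adjusted p of 0.0152, and leaving out a library raised that p to 0.0511 (DMSO 2), 0.0521 (DMSO 3) and 0.05 (OTI-611 1). The call was also lost without the filter on low values (0.141) and with whole numbers throughout (0.0713).

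In complex I, core subunits that carry the electron path and accessory subunits stood apart in their medians. Of 6 tested core genes, 2 were lower and 1 was higher, with a median of -0.09. Of 26 tested accessory genes 18 were lower and 2 higher, with a median of -0.31. Among all genes tested 37.3% were lower and 27.8% higher. Core and accessory genes were not tested against each other. The core genes NDUFS3, NDUFS7 and NDUFV2 averaged only 1.85, 2.70 and 2.295 RPKM, where the log2(RPKM + 1) scale understates changes. NDUFV1, which binds NADH, was at 88, 90.2 and 86.9 RPKM in DMSO and at 85.3, 87.3 and 85.5 with OTI-611, overlapping groups with a difference of -0.04. The iron-sulfur subunit gene NDUFS8 was lower (-0.18). The iron-sulfur subunit gene NDUFV2 was low in both groups, at 2, 1.94 and 1.505 RPKM in DMSO and 2.76, 3.21 and 2.36 with OTI-611. It rose by 0.42 (limma adjusted p = 0.0109), a call lost without OTI-611 2 (adjusted p = 0.0601), without the filter on low values (0.0716) and with all libraries cut to whole numbers (0.116). Its exons share 28.4% of their bases with another gene.

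The accessory genes gave the lowest differences of complex I. NDUFB3 was at 39, 37.9 and 37.6 RPKM in DMSO and at 18.7, 14.6 and 18.4 with OTI-611, and fell by 1.11 ± 0.078 (SE) on the log2 scale, with a limma adjusted p of 2.12e-06. NDUFS5 went from 138, 140.2 and 140.2 RPKM to 83.6, 77.0 and 82.8 (-0.78, limma adjusted p = 1.24e-07). NDUFA1, a small subunit encoded on the X chromosome, went from 74, 76.9 and 77.1 RPKM to 44.8, 44.2 and 46.4 (-0.74, limma adjusted p = 9.35e-08). None of these genes had overlapping groups. NDUFA2 (-0.69), NDUFB1 (-0.63), NDUFB4 (-0.61) and NDUFB6 (-0.50) were also lower. Of the NDUFB genes, which build the outer membrane arm, 7 of 10 tested were lower and 0 higher. Among all genes tested 37.3% were lower and 27.8% higher. The exons of NDUFA1 and NDUFB3 share 44.5% and 19.8% of their bases with other genes in GENCODE release 29. For NDUFB11 and NDUFB2, also lower, the shares are 44.85% and 35.9%. How the authors counted reads on shared bases is not given in the sources used here.

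The accessory genes NDUFS4 and NDUFA13 moved the other way. NDUFS4, whose product helps the NADH-oxidizing module dock, was at 43, 43.2 and 42.5 RPKM in DMSO and rose to 59.8, 58.5 and 56.3 with OTI-611 (0.43 ± 0.030 SE, limma adjusted p = 2.00e-06). NDUFA13, also known as GRIM-19, rose from 1, 1.17 and 1.08 RPKM to 2.27, 2.52 and 1.91 (0.63 ± 0.12 SE, limma adjusted p = 0.00109). At this low level its call was lost with all libraries cut to whole numbers (0.39, adjusted p = 0.133), and its exons share 21.0% of their bases with other genes. NDUFA10, NDUFB5 and NDUFB8 differed by -0.04, 0.03 and -0.03 and did not pass.

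As examples of the sequence before lower members, the 250 bases before the start of NDUFB3 and of NDUFA1 are given. They are from RefSeq on GRCh38.p14, 5′ to 3′ on the gene's strand, and do not stand for the members that fell far. Capitals mark GGGCGG, the letters bound by SP1, and CCGGAAG, the letters bound by GABPA and other ETS factors, or their reverse complements.
NDUFB3 (chr2:201071751-201072000, plus strand): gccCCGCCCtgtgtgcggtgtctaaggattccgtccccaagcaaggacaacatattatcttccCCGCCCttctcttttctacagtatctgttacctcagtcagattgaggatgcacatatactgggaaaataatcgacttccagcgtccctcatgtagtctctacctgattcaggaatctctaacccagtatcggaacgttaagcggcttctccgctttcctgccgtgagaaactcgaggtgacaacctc
NDUFA1 (chrX:119871582-119871831, plus strand): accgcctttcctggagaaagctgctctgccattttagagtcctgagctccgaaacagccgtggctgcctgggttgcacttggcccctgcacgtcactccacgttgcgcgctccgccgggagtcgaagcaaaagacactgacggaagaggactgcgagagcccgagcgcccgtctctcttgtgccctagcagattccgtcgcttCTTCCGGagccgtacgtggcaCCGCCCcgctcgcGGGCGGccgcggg
The NDUFB3 stretch held 2 SP1 matches, and the NDUFA1 stretch held 1 GABPA match 47 bases before the start and 2 SP1 matches. UQCC1 (-0.86) and ATP5MC1 (-0.83) fell further than NDUFA1, and their windows around the start held neither the SP1 nor the GABPA letters.

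Complex II, the succinate dehydrogenase that also serves the citric acid cycle, had small differences in SDHA, SDHC and SDHD. The membrane anchor gene SDHC was at 103, 101 and 105 RPKM in DMSO and at 87.4, 83.5 and 84.0 with OTI-611 (-0.28 ± 0.028 SE, limma adjusted p = 1.95e-05). The other anchor gene, SDHD, was lower by a smaller step (-0.15, limma adjusted p = 0.0083), and its call was lost after rescaling to the median log ratio (-0.08, adjusted p = 0.28), without the filter on low values (0.08) and with whole numbers throughout (0.0603). The flavoprotein gene SDHA, at 5.13 to 6 RPKM, differed by -0.13 (limma adjusted p = 0.056) and had groups that did not overlap. The iron-sulfur subunit gene SDHB was at 22, 11.8 and 4.68 RPKM in DMSO and at 9.92, 26.4 and 11.9 with OTI-611. Its replicates spread widely in both groups, and its difference of 0.40 ± 0.48 (SE) turned to -0.13 without DMSO 3. It was 0.88 without DMSO 1, 0.66 without OTI-611 1 and 0.0015 without OTI-611 2.

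Complex III hands electrons from ubiquinol to cytochrome c. Its small subunits were lower: UQCR10 went from 22, 21.7 and 19.0 RPKM to 14.9, 12.4 and 14.4 (-0.56 ± 0.072 SE, limma adjusted p = 0.000117), and UQCRQ (-0.40), UQCR11 (-0.33), UQCRB (-0.27) and UQCRH (-0.21) followed. The Rieske iron-sulfur protein gene UQCRFS1 differed by -0.27. CYC1, which encodes the cytochrome c1 heme protein, was higher, from 82, 86.3 and 84.7 RPKM to 94.9, 94.1 and 97.8 (0.18 ± 0.028 SE, limma adjusted p = 0.000431). The core protein gene UQCRC1 was at 119, 125 and 125 RPKM and rose to 129, 132 and 132 (0.09, limma adjusted p = 0.0157), with an adjusted p of 0.0554 without DMSO 1, 0.0664 without the filter on low values and 0.0712 without the variance trend. Without that filter UQCR11 also missed the threshold (0.0678). UQCRC2, for the other core protein, was at 11, 27.1 and 26.4 RPKM in DMSO and at 12.6, 25.9 and 15.2 with OTI-611. Here, as in SDHB, libraries of 1 group lay more than 1.5-fold apart, and the difference of -0.21 ± 0.33 (SE) did not pass. It was -0.62 without DMSO 1, -0.50 without OTI-611 2, -0.13 without OTI-611 3 and between -0.02 and -0.002 without each of the other libraries in turn.

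**Figure D3:**
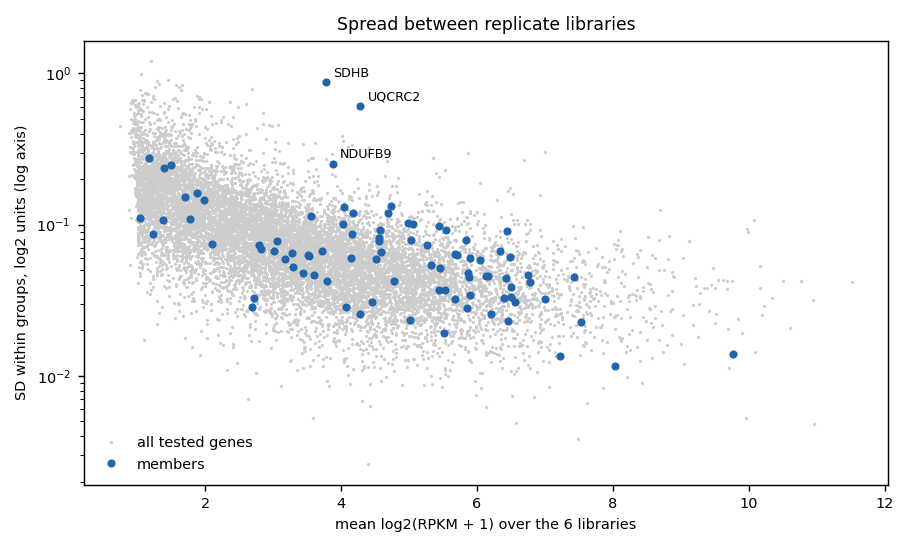
Standard deviation within groups (y axis, log2 units, log axis) against mean level (x axis) for the genes tested, in grey, and the members, in blue. SDHB and UQCRC2 lie above the other members, at the 99.97 and 99.6 percentile of all genes tested.

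The libraries of SDHB and UQCRC2 spread widely within groups. Their within-group SD ranked at the 99.97 and 99.6 percentile of the 11978 genes tested, and NDUFB9, at 14, 14.8 and 9.45 RPKM in DMSO and 16.0, 13.1 and 15.8 with OTI-611, ranked at the 94.9 percentile. These ranks are over genes of any level. The libraries with high SDHB were DMSO 1 and OTI-611 2, and those with high UQCRC2 were DMSO 2, DMSO 3 and OTI-611 2. By contrast COX8A, UQCRH and ATP5F1B ranked at the 0.96, 0.551 and 1.03 percentile. In GENCODE release 29 the exons of SDHB and UQCRC2 share 0% of their bases with other genes.

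Complex IV reduces oxygen, and its nuclear subunits surround a core made from mitochondrial DNA. COX7B went from 25, 25.1 and 25.7 RPKM to 17.7, 16.8 and 17.0 (-0.53 ± 0.034 SE, limma adjusted p = 1.31e-06), and COX6B1 from 132, 127 and 134 RPKM to 94.3, 88.3 and 90.85 (-0.52 ± 0.031 SE, limma adjusted p = 8.49e-07). COX7C (-0.40), COX6C (-0.37), NDUFA4 (-0.28), a former complex I protein now placed in complex IV, and COX6A1 (-0.21) were also lower. Other subunits differed little: COX4I1 was at 72, 72.6 and 74.9 RPKM in DMSO and 72.5, 71.4 and 73.5 with OTI-611 (-0.01, and 0.05 after rescaling), and COX5A and the small subunit gene COX8A (69 residues) differed by -0.01 and -0.04 and did not pass.

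Paralogues in complex IV differed. COX7A2 went from 100, 102 and 106 RPKM to 79.2, 67.0 and 70.8, a difference of -0.50 ± 0.054 (SE, limma adjusted p = 3.36e-05). COX7A2L, a relative of COX7A2 that joins complexes III and IV into supercomplexes, rose from 40, 40.3 and 41.0 RPKM to 50.4, 49.0 and 49.7 (0.29 ± 0.027 SE, limma adjusted p = 1.15e-05). Neither gene had overlapping groups. The difference between these paralogues was not itself tested. NDUFA4L2, a paralogue of NDUFA4 known from hypoxia, was near the minimum for testing, with 1, 1.30 and 1.26 RPKM in DMSO and 1.65, 1.47 and 1.52 with OTI-611 (0.22, limma adjusted p = 0.127). The tissue-restricted forms COX6B2 and COX7A1 were under the minimum, with values up to 0.344 and 1 RPKM, and COX4I2 was listed at 0 in the 6 libraries.

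**Figure D4:**
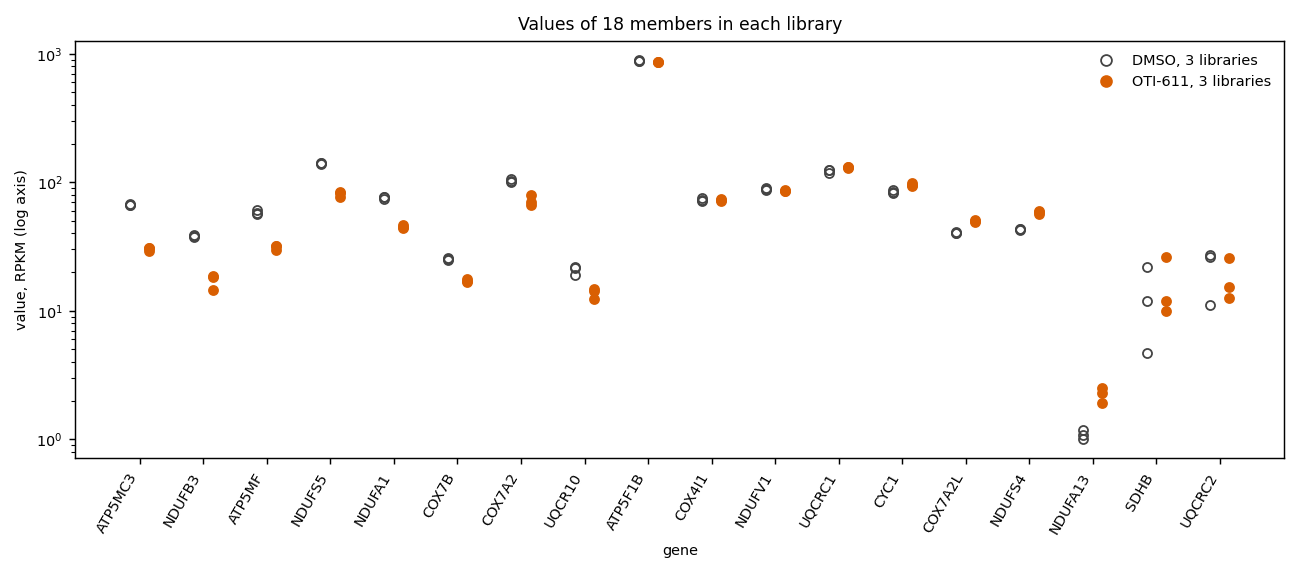
Values (y axis, RPKM, log axis) of 18 members in the 3 DMSO libraries (open circles) and the 3 OTI-611 libraries (filled circles). The genes on the left are lower with OTI-611, ATP5F1B, COX4I1 and NDUFV1 are close between groups, UQCRC1, CYC1, COX7A2L, NDUFS4 and NDUFA13 are higher, and SDHB and UQCRC2 spread within both groups.

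The assembly factors, which build complexes but are absent from the finished enzyme, included large and small differences. UQCC1, a complex III factor that works on newly made cytochrome b, was at 23, 24.0 and 22.7 RPKM in DMSO and at 13.6, 11.7 and 11.7 with OTI-611 (-0.86 ± 0.057 SE, limma adjusted p = 1.48e-06). Its partner UQCC2 rose from 15, 15.1 and 15.3 RPKM to 19.5, 18.3 and 17.2 (0.26 ± 0.046 SE, limma adjusted p = 0.00087). These genes encode proteins known to act together, and their groups separated in opposite directions. The exons of UQCC2 share 24.1% of their bases with other genes in GENCODE release 29, and those of UQCC1 share 0%. UQCC5 (-0.60), NDUFAF7 (-0.49), NDUFAF8 (-0.35), NDUFAF3 (-0.21) and UQCC6 (-0.20) were lower. The call of NDUFAF3 was lost without the filter on low values (limma adjusted p = 0.113), after rescaling (0.0523) and with whole numbers throughout (0.0588), and that of UQCC6 with quantile normalization (0.0926) and with whole numbers (0.269). The other complex I factors NDUFAF1, NDUFAF2, NDUFAF4, NDUFAF5 and NDUFAF6 lay between -0.10 and 0.12 and did not pass.

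Members that encode small proteins were lower more often than members that encode larger ones, which was not itself tested. Protein size was taken as the longest coding sequence of the gene in GENCODE release 29. Of 23 tested members with up to 100 residues, 20 were lower and 0 higher, with a median difference of -0.40. The median was -0.32 for the 21 members of 101 to 150 residues, -0.21 for the 17 of 151 to 200, -0.13 for the 12 of 201 to 300, -0.04 for the 12 of 301 to 500 and -0.13 for the 3 over 500. Across the 88 members the Spearman rho between size and difference was 0.451, and across 10222 tested genes with a coding length it was 0.094. Genes share libraries and are not independent replicates, so these are descriptions. Small proteins were also often lower in the whole table: among the 172 tested genes of up to 100 residues, members included, 61.6% were lower and 14.0% higher, with a median of -0.29. The part of transcript length in these values was not tested. Exon length, taken as all exon bases of a gene over its annotated transcripts, had a rho of 0.226 among the members and 0.068 among all such genes. It is not the length of the transcript expressed in these cells.

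**Figure D5:**
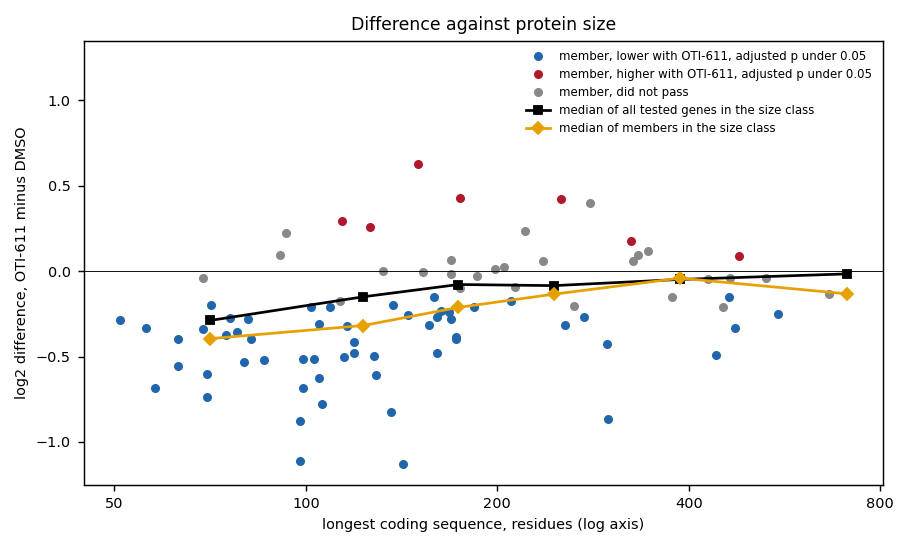
Difference between OTI-611 and DMSO (y axis, log2(RPKM + 1) scale) against the longest coding sequence (x axis, residues, log axis) for the 88 tested members, with the medians of members (diamonds) and of all tested genes (squares) by size class. Members of up to 100 residues have a median of -0.40 and all genes of that size -0.29, and for 301 to 500 residues the medians are -0.04 and -0.05.

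The promoters of respiratory genes are known for sites of NRF1, of GABPA and of YY1. RefSeq windows from 250 bases before to 50 bases after a start were at hand for 71 of the 88 tested members, and a gene was counted where any of its listed windows held the letters on either strand. The NRF1 letters, GCGCA followed directly by TGCGC, were found in 5 of 71 members (7.04%) and in 1.52% of the 27305 genes with windows. Those 27305 genes were not limited to genes tested here, so these shares compare unlike sets. CCGGAAG, the GABPA letters, was found in 21 members (29.6%, against 12.2%), and AAGATGGCG, the YY1 letters, in 10 members (14.1%, against 2.14%). The YY1 letters contain ATG, and in each of these members but ATP5PF they began 9 to 23 bases after a start. Whether those matches lie at start codons of the protein was not tested. GGGCGG, the SP1 letters, was found in 44 members (62.0%, against 48.3%), TCAAGGTCA, the ESRRA letters, in 1 (1.41%, against 0.432%), and TGATGCAA, the letters of ATF4 with C/EBP partners, in 0 (against 1.08%). The GABPA and YY1 letters can overlap by AAG, and 0 member windows held such a joint site.

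By direction, the NRF1 letters stood in 4 of the 45 lower members with windows, 0 of the 6 higher ones and 1 of the 20 that did not pass. The YY1 letters stood in 2 of the 45 lower, 3 of the 6 higher and 5 of the 20 members that did not pass. These counts are small, and a match is a description of the letters in the window. The matches are shown in stretches of 30 bases on GRCh38.p14, 5′ to 3′ on the gene's strand, with the matched letters in capitals. The YY1 matches in NDUFS4, UQCC2 and UQCRC1, which were higher, and in ATP5PF and NDUFAF8, which were lower, read as follows.
NDUFS4 (chr5:53560650-53560679, plus strand): tgcctgcagcAAGATGGCGgcggtgtcaat
UQCC2 (chr6:33711670-33711699, minus strand): cgcggggcccAAGATGGCGgccagccggta
UQCRC1 (chr3:48609604-48609633, minus strand): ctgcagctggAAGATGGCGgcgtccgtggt
ATP5PF (chr21:25735092-25735121, minus strand): aggcgaagaaAAGATGGCGgaggctgtgcc
NDUFAF8 (chr17:81239317-81239346, plus strand): ggacggacctAAGATGGCGgcctccagggg
The NRF1 matches in the lower members ATP5F1C, NDUFA8, NDUFB4 and SDHD read as follows.
ATP5F1C (chr10:7788145-7788174, plus strand): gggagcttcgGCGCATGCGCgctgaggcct
NDUFA8 (chr9:122159764-122159793, minus strand): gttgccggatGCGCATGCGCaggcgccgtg
NDUFB4 (chr3:120596167-120596196, plus strand): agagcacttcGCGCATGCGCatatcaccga
SDHD (chr11:112086753-112086782, plus strand): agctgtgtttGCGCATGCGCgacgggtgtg
NDUFA8 and NDUFB4 differed by -0.39 and -0.61.

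The factors that act on such promoters, and their co-activators, were measured too. Of 10 tested regulators of mitochondrial biogenesis, 3 were higher, 1 was lower and 6 did not pass, against 27.8% higher and 37.3% lower among all genes tested. NRF1 rose from 7, 8.15 and 8.11 RPKM to 10.99, 10.8 and 11.4 (0.46, limma adjusted p = 0.00012), GABPB1, the partner of GABPA, from 7, 7.07 and 7.01 RPKM to 11.3, 10.9 and 10.8 (0.58, limma adjusted p = 3.13e-06), and YY1 from 43, 43.7 and 42.8 RPKM to 51.2, 52.1 and 50.2 (0.24, limma adjusted p = 4.60e-05). ESRRA, an orphan receptor that drives respiratory genes, was lower (-0.25, limma adjusted p = 0.00096). GABPA, GABPB2, PPARA, PPARGC1B and PPRC1 stood at -0.05, -0.17, 0.28, -0.03 and -0.03 and did not pass. TFAM, which packs and transcribes mitochondrial DNA, was at 17, 16.9 and 17.0 RPKM in DMSO and 16.7, 17.3 and 16.8 with OTI-611. After rescaling to the median log ratio GABPA stood at 0.02, PPARGC1B at 0.02, PPRC1 at 0.04 and TFAM at 0.06.

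Other mitochondrial lists had medians closer to that of all genes tested, of which 37.3% were lower and 27.8% higher. Of 72 tested mitochondrial ribosomal protein genes, 31 (43.1%) were lower and 23 (31.9%) higher, near the shares of all genes, with a median of -0.06. In that list MRPS10 (0.60) and MRPS30 (0.66) rose while MRPL51 (-0.61) fell. Of 24 import genes, 12 were lower and 6 higher (median -0.09), with the matrix chaperone HSPA9 at 0.93, the processing peptidase gene PMPCA at -0.79 and TIMM17A at -0.64. Of 18 genes of the citric acid cycle and pyruvate dehydrogenase, 9 were lower and 3 higher (-0.11), with OGDH at -0.73, DLAT at -0.34 and SUCLG2 at 0.34. Of 15 genes for the upkeep and transcription of mitochondrial DNA, 6 were lower and 2 higher (-0.12), with MTERF2 at -0.93, MGME1 at -0.40 and MTERF3 at 0.25.

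Assembly factors with other names were counted in 4 lists, beside 37.3% lower and 27.8% higher among all genes tested. For complex IV 12 of 24 were lower and 7 higher (median -0.17), with COA5 at -0.77, COA7 at -0.37 and the copper chaperone COX11 at -0.34. For complex I 8 of 14 were lower and 3 higher (-0.20), with TMEM70, which also serves ATP synthase, at -0.48, TIMMDC1 at -0.45 and DMAC1 at -0.40. For complexes II and III 2 of 7 were lower and 2 higher, with TTC19 at 0.48, BCS1L at -0.35 and LYRM7 at -0.20. Of 3 tested ATP synthase factors, ATPAF1 (-0.45) was lower, and ATPAF2 (0.09) and TMEM242 (-0.06) did not pass. Of 14 genes for cytochrome c and coenzyme Q, 5 were lower and 1 higher (-0.14), with COQ8B at -0.87, PDSS1 at -0.65 and COQ10B at 0.36.

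Of the 104 members 16 had a mean under 1 and were not tested. NDUFB10, a complex I subunit, was listed at 0 in 5 libraries and at 0.0559 in OTI-611 2. COX5B, a complex IV subunit, was listed at 0 in the DMSO libraries and in OTI-611 3 and at 0.0726 and 0.0725 in OTI-611 1 and OTI-611 2. ATP5IF1, which encodes the inhibitor of ATP hydrolysis, was listed at 0 in 5 libraries and at 0.0166 in DMSO 3. NDUFB10 and COX5B belong to enzymes of every respiring cell, and the level of these transcripts is not known from the table. The exons of NDUFB10, COX5B and ATP5IF1 share 0% of their bases with other genes in GENCODE release 29. That release names 2 pseudogenes of NDUFB10, 6 of COX5B and 0 of ATP5IF1. Whether reads were lost to such copies was not tested. The core subunit gene NDUFS1 was listed at 0 in DMSO 1 and at 0.603, 0.679, 0.65, 0.638 and 0.486 RPKM in the other libraries, about 225 to 298 estimated reads each, while its partner NDUFV1 stood at 85.3 to 90.2 RPKM. NDUFA3, NDUFA11, UQCC3, COX4I2, COX6B2, COX7A1 and ATP5MGL were also under the minimum, as were the divergent transcripts of NDUFV1, NDUFA6 and UQCRFS1, the fusion ATP5MF-PTCD1 and the pseudogene COX8BP. Nearest to the minimum were NDUFA9, with a mean of 1.07, and NDUFA3, with 0.573.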

How the data were processed

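Per the labels' protocols, total RNA was amplified by the Geo-seq method and made into libraries with a TruePrep kit. Tools listed, without roles, in the submitters' processing notes are TopHat2 2.0.9, HTSeq, Cufflinks 2.1.1, FastQC and CASAVA 1.7, with the build mm10. mm10 is a mouse build and the gene IDs are human, so build and annotation are not established. The authors deposited 5 columns whose values behave as RPKM, since 63.8% to 65.0% of low values came out as whole reads within 0.05 with GENCODE release 29 exon lengths. FPKM would behave alike. The column DMSO 1, deposited as whole numbers, is treated as a score on the same scale.

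Genes averaging 1 or more were fitted on log2(value + 1) with limma 3.58.1 in R 4.3.3, with group as the only term and a trend of variance with level. Tests were two-sided, with Benjamini-Hochberg adjusted p-values and a threshold of 0.05. The fold on this scale understates changes of low genes. The fit was also run on simulated data with independent noise. Those data had far fewer changed genes and no dropped decimals, so the run does not check the fit under the conditions of these libraries. The members, lists and tests were chosen with earlier results of these data known.

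Named by rule were, per complex, the 4 members with the smallest p and the highest and lowest difference, the SDH genes, paralogue sets, ATP5IF1, the members nearest to the minimum, the 3 smallest p of each other list and the regulators tested. Further members were named after their values were seen. Alternatives were another pseudocount, other filters, quantile normalization, rescaling to the median log ratio, whole numbers throughout, no trend, a replicate block and leaving out each library. Copies, overlapping genes and antisense reads are uncertain. Exon overlap and protein size come from GENCODE release 29 on GRCh38, where 103 of the 104 members were found. The result of 1 member is not reported here by itself and is kept in the counts and medians. Of the list of mitochondrially encoded genes, 0 rows were found.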

Additional observations from a re-analysis of the deposited data

How the results depend on the processing

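The fit called 55 members lower and 7 higher. Over the alternatives that tested all 88, 49 to 55 of the 55 remained lower and 5 to 7 of the 7 remained higher, and 0 called members changed sign. The replicate block gave 55 lower and 7 higher members and changed no call among them. Same-numbered libraries had correlations of deviations of 0.019, 0 and -0.058. Such correlations cannot show whether libraries of the same number were cultured or handled together. With a pseudocount of 0.1, the median difference was -0.288 for complex I. With a minimum mean of 5, the median difference was -0.308 for complex I. With quantile normalization, the count of higher members was 11. With quantile normalization, the median difference was -0.056 for assembly factors and -0.093 for complex II. With quantile normalization, differences that had not passed turned sign in ATP5F1B (0.0064), COX4I1 (0.0114), COX5A (0.0171), GABPA (0.0135), NDUFB8 (0.0362), PPARGC1B (0.0719), TFAM (0.0258) and TMEM242 (0.0389). After rescaling to the median log ratio, the median difference was -0.349 for ATP synthase, -0.037 for assembly factors, -0.179 for complex I, -0.078 for complex II, -0.174 for complex III and -0.176 for complex IV. After rescaling to the median log ratio, differences that had not passed turned sign in ATP5F1B (0.0291), COX4I1 (0.0545), COX5A (0.0626), COX8A (0.0316), GABPA (0.0153), NDUFA10 (0.0219), NDUFB8 (0.03), NDUFV1 (0.0302), PPARGC1B (0.0165), PPRC1 (0.0365) and TFAM (0.0633). With all libraries cut to whole numbers, the median difference was -0.323 for complex I. Leaving out 1 library at a time, medians ranged from -0.298 to -0.241 for complex I, from -0.286 to -0.226 for complex III and from -0.437 to -0.377 for ATP synthase. Differences that did not pass crossed 0 when 1 library was left out for ATPAF2 (-0.0075 to 0.163), NDUFS7 (-0.0734 to 0.128), UQCC4 (-0.0537 to 0.0835), UQCRHL (-0.0777 to 0.199), ATP5MC2 (-0.0053 to 0.0326), NDUFA7 (-0.304 to 0.0069), NDUFB5 (-0.0009 to 0.0561), COX4I1 (-0.0253 to 0.0032), COX5A (-0.0342 to 0.0238), NDUFB8 (-0.0603 to 0.0112), PPARGC1B (-0.0908 to 0.005), SDHB (-0.131 to 0.879), TFAM (-0.0149 to 0.0062) and TMEM242 (-0.0969 to 0.0004). The causes were not tested. Precision is limited by 3 libraries per group and, for genes near 1, by the dropped decimals of DMSO 1.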
